A study of Mus musculus with 18 samples.

Results

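The respiratory chain genes examined here were the protein-coding genes of the count table whose symbols name a subunit of complexes I to V: Nduf genes of the A, B, C, S and V series, Sdha to Sdhd, Uqcr genes, Cox4 to Cox8 genes, Atp5 genes and the 13 protein-coding genes of the mitochondrial genome. The rule reads symbols and biotype. It gave 100 of 55487 genes in the table, of which 87 are nuclear and 13 mitochondrial. The nuclear genes were 38 of complex I, 4 of complex II, 8 of complex III, 19 of complex IV and 18 of complex V, and the mitochondrial genes were 7 of complex I, 1 of complex III, 3 of complex IV and 2 of complex V. Ndufa4 was placed with complex I by its symbol although its protein is known as a complex IV subunit, and Ndufb1-ps and Cox5b-ps carry the biotype protein_coding in the table.

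Complexes I to IV pass electrons from NADH and succinate to oxygen and pump protons across the inner mitochondrial membrane, except complex II, which pumps none. Complex V, the ATP synthase, uses the returning protons to make ATP. Complex II is encoded wholly in the nucleus, whereas the other complexes are assembled from nuclear and mitochondrial gene products, so their genes are read by separate polymerases in separate compartments. In natural killer (NK) cells, lymphocytes that kill infected or tumour cells, activation by IL-15 is known to raise mitochondrial respiration.

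The libraries came from NK cells of mouse spleen, sorted for YFP. All mice carried Rosa YFP/YFP and Ncr1 CRE-ERT2, a tamoxifen-activated Cre driven by Ncr1, which is read in NK cells and some related innate lymphoid cells. The knockout mice also carried Acly fl/fl, so that tamoxifen removes Acly, which cleaves cytosolic citrate into acetyl-CoA and oxaloacetate, and no floxed allele is named for the wild-type mice. Both genotypes ate the tamoxifen diet for 48 h and were used 5 days after it was withdrawn. Cells were taken fresh, after 72 h with IL-15 at 100 ng/ml (primed), or after priming, washing and 6 h on plate-bound NKG2D at 20 ug/ml. No group was cultured without IL-15 or plated without NKG2D. Effects of culture, washing and time therefore cannot be told apart from those of IL-15 and NKG2D. Each of the 6 groups held 3 libraries, 18 in all; nothing in the labels states that the 3 came from separate mice, so each p-value rests on library-to-library spread, which may be technical. The question was how loss of Acly affects gene expression in NK cells at rest, after priming and after stimulation.

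The libraries held 14772350 to 34367582 counts. Acly was at 250 ± 16.7 CPM (counts-per-million, scaled by TMM factors, mean ± SD, n = 3) in fresh wild-type cells and 18.9 ± 5.66 in fresh knockout cells, and at 256 ± 26.9 and 42.8 ± 5.56 after priming. All 8 NK markers reached 1 CPM in every group, and their summed level lay between 12945 and 16660 CPM in fresh, 7631 and 9552 in primed and 4136 and 5237 in NKG2D libraries. The primed knockout replicate 1 was the shallowest library and had the fewest genes with a count, 14698 against 17885 to 19672 elsewhere. Replicates spread most in primed libraries, with a common biological coefficient of variation of 0.316, beside 0.218 after NKG2D and 0.163 when fresh. In bulk libraries, fewer cells of a type and less RNA per cell cannot be told apart.

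Wild-type replicates 2 and 3 stood apart from the other 12 libraries in 1 mitochondrial gene, mt-Nd3, a subunit of complex I. The gene (chrM, 9459 to 9806, plus strand, mm10) has a near-identical copy on chromosome 1, Gm28438 (24612775 to 24613119, minus strand). Over 345 aligned bases the transcripts in GENCODE vM21 differ by 1 substitution, T3C, counted from the first base of mt-Nd3. The substituted base is base 9461 of chrM. Their first 60 bases are shown because the libraries with few mt-Nd3 counts were those with many Gm28438 counts, with the differing base in capitals:
mt-Nd3: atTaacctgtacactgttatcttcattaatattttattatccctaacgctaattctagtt
Gm28438: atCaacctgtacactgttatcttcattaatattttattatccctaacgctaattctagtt
mt-Nd3 read 7.07 to 12.4 CPM in wild-type replicates 2 and 3 of the fresh, primed and NKG2D groups and 60.7 to 146 CPM in the other 12 libraries. Gm28438 read the reverse, 130 to 213 CPM in those 6 libraries and 1.94 to 6.84 CPM in the rest. The sum of both was 137 to 226 CPM in the 6 and 62.9 to 150 CPM in the 12. The pattern was the same in all 3 conditions and absent from wild-type replicate 1 and from the knockout libraries. It was thus unevenly shared between the genotypes, and its part in their comparisons was not tested. In the knockout-minus-wild-type comparison after NKG2D, the log2 fold change of mt-Nd3 was 0.75 (SE 1.01, edgeR adjusted p = 0.666) alone and -1.02 (edgeR adjusted p = 0.00573) with the copy added, so no result below rests on mt-Nd3 alone. A further 6 mitochondrial genes have copies in the same block of chromosome 1. Those of mt-Co2, mt-Atp6, mt-Co3, mt-Nd4l and mt-Nd4 are identical over their aligned 681, 678, 783, 294 and 876 bases, and that of mt-Co1 differs by A1066T over 483. Counts of these 7 genes are therefore uncertain, and mitochondrial calls that differ with the copies added are given below. Neighbouring mitochondrial genes overlap in places (mt-Nd4l with mt-Nd4, mt-Atp8 with mt-Atp6), and mt-Nd6 lies on the other strand; whether counting used strand is not stated by the labels, so mt-Nd6 reads cannot be told from antisense reads.

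**Figure D1:**
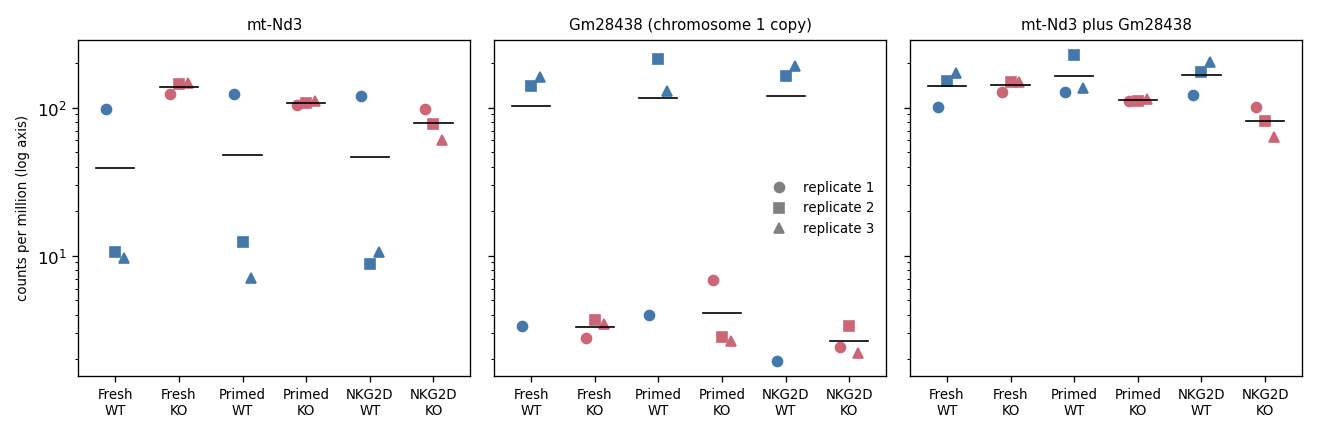
Level of mt-Nd3, of its chromosome 1 copy Gm28438 and of their sum in each of the 18 libraries, in CPM on a log axis (blue wild type, red knockout, black lines are group means). Wild-type replicates 2 and 3 are low for mt-Nd3 (7.07 to 12.4) and high for Gm28438 (130 to 213) in every condition and their sums are 137 to 226, beside 62.9 to 150 in the other 12.

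Of the 100 genes, 94 passed the filter on low counts: 81 of 87 nuclear and 13 of 13 mitochondrial. The 6 that did not were Ndufa4l2, Cox4i2, Cox7b2, Cox8b, Cox8c and a second Atp5o entry, with at most 16 counts over all libraries. Cox4i2 is known as a lung and hypoxia isoform of Cox4i1, and Cox8b as a muscle isoform of Cox8a. A further 7 nuclear genes differed at least 2-fold between the replicates of some group (among the 90 genes with a mean of at least 5 CPM): Ndufa10, Ndufb2, Cox5a, Cox5b, Cox8a, Atp5b and Atp5d. Atp5d, the delta subunit of the catalytic head of ATP synthase, read 49.6, 42.8 and 271 CPM in primed wild-type replicates 1 to 3, 200, 135 and 45.0 in NKG2D wild type and 180, 195 and 215 in fresh wild type. Atp5b, the catalytic beta subunit, read 219, 200 and 615 CPM in primed and 636, 467 and 187 CPM in NKG2D wild type. Cox5a, a structural subunit of complex IV, read 140, 91.5 and 53.9 CPM in fresh, 39.1, 41.9 and 271 in primed and 28.7, 29.1 and 36.2 in NKG2D wild type. In all 7, primed wild-type replicate 3 was the highest of its group, and in the 5 of them that spread 2-fold after NKG2D in wild type replicate 3 was the lowest. Over all 9250 tested genes at this level, 8.29% spread 2-fold in primed, 4.46% in NKG2D and 3.42% in fresh wild type. In knockout cells 9.98%, 6.86% and 2.42% did. In the same order, the nuclear genes that spread were 7, 5 and 1 in wild type and 1, 2 and 0 in knockout. Set against the 90 genes at this level, the 7 in primed wild type are near the share of all tested genes. None of the 7 passed the edgeR test on all 18 libraries in any comparison below, with 5 unadjusted p-values under 0.05 over the 9 comparisons. The cause of the spread was not tested.

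**Figure D2:**
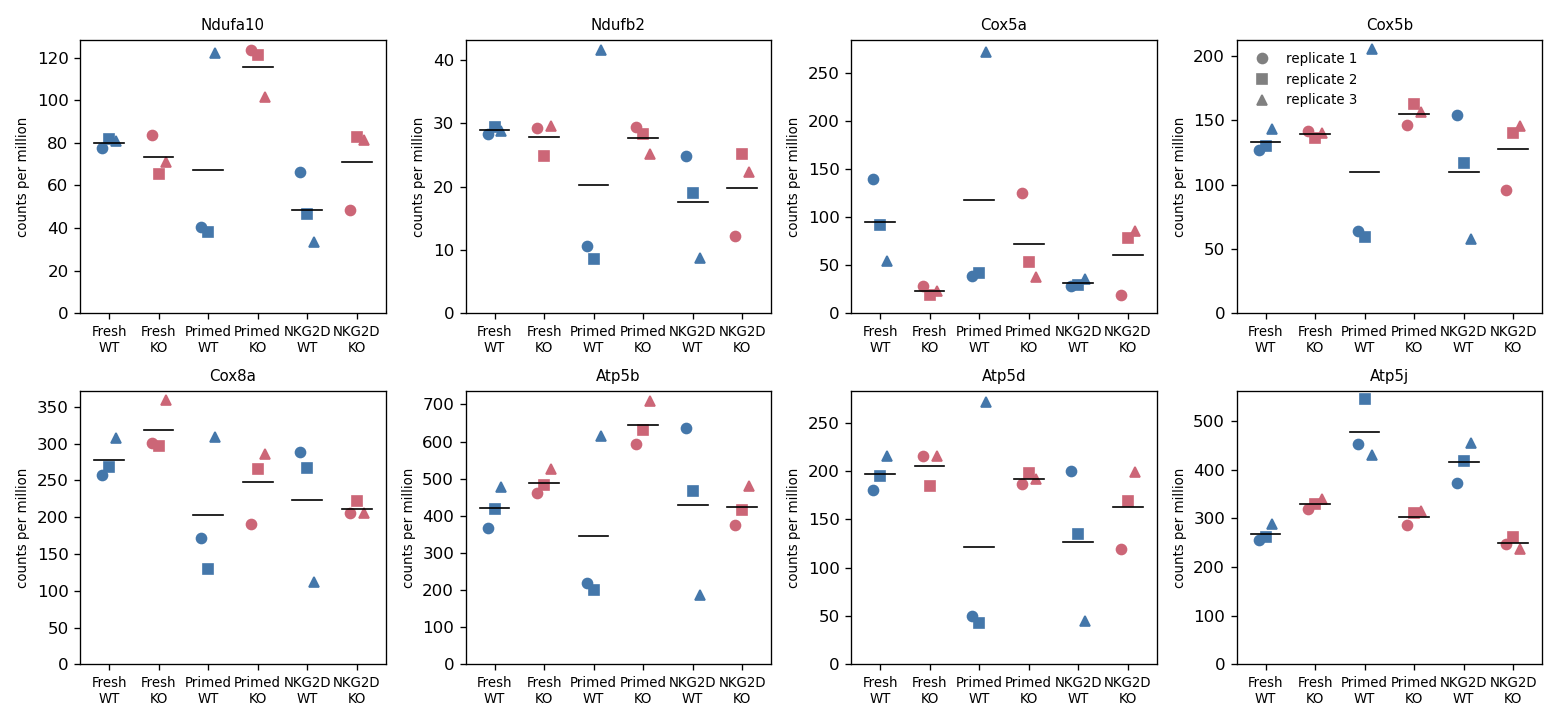
Level of the 7 nuclear genes whose replicates differed at least 2-fold within a group, and of Atp5j for contrast, in each library (CPM, blue wild type, red knockout, black lines are group means). Primed wild-type replicate 3 is the highest of its group in all 7 and the lowest in Atp5j.

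After priming with IL-15, most nuclear respiratory chain genes were higher than in fresh wild-type cells, and 7 of 13 mitochondrial ones were lower. The 81 tested nuclear genes summed to 13375, 13766 and 14973 CPM in fresh and 18708, 20093 and 18725 CPM in primed wild-type replicates 1 to 3, with no overlap. The 13 mitochondrial genes summed to 14908, 17383 and 18081 CPM fresh and 16167, 17185 and 12920 CPM primed, which overlap. Their ratio, mitochondrial over nuclear, was 1.20 ± 0.0749 (n = 3) fresh and 0.803 ± 0.0981 primed, and with the chromosome 1 copies added 1.46 ± 0.0859 and 1.00 ± 0.114. By edgeR, 56 of 94 genes rose, all nuclear (59.6%, where 26.5% of all tested genes rose), and 8 fell, 7 of them mitochondrial (8.51%, where 27.2% of all tested genes fell). The median log2 fold change was 0.55 over nuclear genes, -0.30 over mitochondrial genes and -0.06 over all tested genes. The difference between the nuclear and mitochondrial medians was 0.85. Per library, the nuclear minus the mitochondrial median of log2 CPM was -2.74 to -2.70 in fresh and -1.77 to -1.51 in primed wild type, without overlap. Markers of other cells differed between the same groups: erythroid markers summed to 115 to 201 CPM in fresh and at most 0.189 CPM in primed wild type, myeloid markers to at least 8.25 and at most 1.64 CPM, B-cell markers to 4.08 to 4.76 and 1.58 to 3.40 CPM and T-cell markers to 27.7 to 73.4 and 30.6 to 62.0 CPM. In knockout cells erythroid markers summed to 16.4 to 18.1 CPM fresh and at most 1.54 CPM primed; the part of these cells in the responses to priming and in their difference was not tested.

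**Figure D3:**
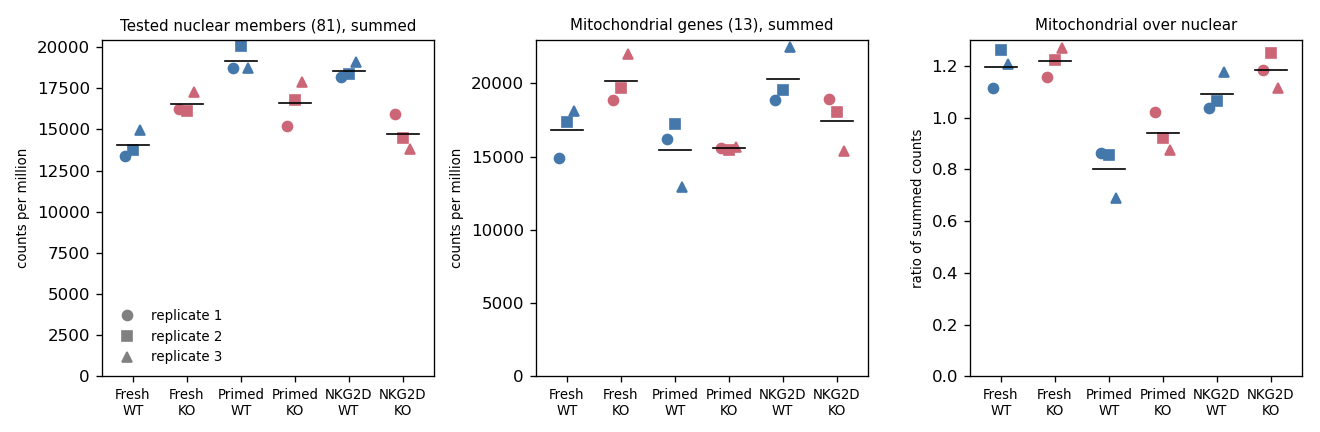
Summed level of the 81 tested nuclear genes, of the 13 mitochondrial genes and the ratio of these sums in each library (blue wild type, red knockout, black lines are group means). The ratio is lowest in primed wild type, 0.690 to 0.864, and 1.11 to 1.27 in the 6 fresh libraries.

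The rise ran through all 5 complexes. In complex I, which oxidises NADH, 27 of 37 nuclear genes rose, and the median log2 fold change was 0.47. Ndufa12, an accessory subunit (chr10:94198720-94221443), read 72.3, 70.1 and 73.3 CPM fresh and 161, 173 and 169 CPM primed, a log2 fold change of 1.22 (SE 0.0872, edgeR adjusted p = 3.22e-09). Ndufc1, another accessory subunit, rose by 1.27. Among the 7 nuclear core subunits, which carry the flavin and iron-sulphur centres, 3 rose, Ndufv1 by 0.61 among them, and among the 30 accessory subunits 24 did. Ndufs1, the largest core subunit, read 0.02 (SE 0.0867, edgeR adjusted p = 0.894). In complex II, Sdhd and Sdhc, the membrane anchors, rose by 0.74 and 0.48 and the iron-sulphur subunit Sdhb by 0.32, while the flavoprotein Sdha read -0.10 and did not pass. In complex III, 5 of 8 rose, with Uqcr10 at 0.93 and Uqcrq at 0.82, both small subunits; the core protein Uqcrc1 and the Rieske protein Uqcrfs1 read 0.02 and 0.09 and did not pass.

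In complex IV, cytochrome oxidase, 7 of 15 rose and 1 fell. Cox7a2, a nuclear subunit of the liver type, read 172, 170 and 182 CPM fresh and 321, 332 and 287 CPM primed, a log2 fold change of 0.84 (SE 0.0864, edgeR adjusted p = 3.06e-07), and Cox7b rose by 0.83. The isoforms known from heart and muscle went in unlike directions at low levels. Cox7a1 was at 0.271, 0.0939 and 0.419 CPM fresh and 2.83, 5.40 and 3.78 CPM primed, a log2 fold change of 3.92 (SE 0.531, edgeR adjusted p = 7.88e-06) and the largest of any member. Cox6a2 was at 3.49, 2.91 and 3.93 CPM fresh and 0.708, 1.15 and 1.60 CPM primed, a log2 fold change of -1.56 (SE 0.467, edgeR adjusted p = 0.00958). Of 6 skeletal muscle markers 2 reached 1 CPM, and the list summed to 6.70 to 7.84 CPM in fresh and 24.1 to 29.1 CPM in primed wild type; its part in Cox7a1 was not tested. Cox6a1, the ubiquitous counterpart of Cox6a2, read -0.13 and did not pass. Cox8a, whose primed replicates spread widely, read -0.45 and did not pass.

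Complex V had the largest class median, 0.74, and 14 of 17 genes rose. The c-ring, the rotor that protons turn, is encoded by Atp5g1, Atp5g2 and Atp5g3, and all 3 rose, by 1.03 to 1.36. Atp5g2 read 91.4, 83.1 and 99.1 CPM fresh and 236, 277 and 191 CPM primed (log2 fold change 1.36, SE 0.145, edgeR adjusted p = 4.87e-07). Of 4 peripheral stalk genes 3 rose, Atp5o by 0.86 among them, and of 5 genes of the catalytic head 3 did, with Atp5a1 at 0.31. Atpif1, the inhibitory factor of the synthase and not matched by the symbol rule, went from 54.8 ± 4.21 to 165 ± 10.4 CPM (n = 3), a log2 fold change of 1.59 (SE 0.111, edgeR adjusted p = 2.55e-09).

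The mitochondrial genes differed among themselves. mt-Nd4, a membrane subunit of complex I, read 896, 948 and 988 CPM fresh and 666, 607 and 494 CPM primed, without overlap (log2 fold change -0.68, SE 0.117, edgeR adjusted p = 0.000102). mt-Nd2 fell by 0.85, mt-Nd4l by 0.57, mt-Cytb, the complex III subunit, by 0.39, mt-Co2 by 0.34, mt-Nd5 by 0.32 and mt-Nd1 by 0.30. mt-Co3 read 0.42, mt-Nd3 0.27 and mt-Atp6 0.01, and none of these 3 passed. With the chromosome 1 copies added, mt-Co3 rose by 0.41 (edgeR adjusted p = 0.0436) and mt-Co2 no longer passed (-0.30, edgeR adjusted p = 0.0748), giving 1 risen and 6 fallen of 13.

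Priming of knockout cells was tested in the same way. By edgeR, of 94 genes, 14 rose (14.9%, where 23.0% of all tested genes rose) and 19 fell (20.2%, where 25.7% fell), and the nuclear median log2 fold change was 0.03. The balance depended on the fit: without primed knockout replicate 1, the shallowest library, 22 rose and 13 fell, on the 6 knockout libraries alone 23 and 16, with at least 50 counts in 3 libraries 23 and 15, and with limma voom 28 and 23. The 81 nuclear genes summed to 16251, 16106 and 17276 CPM in fresh and 15231, 16773 and 17884 CPM in primed knockout replicates 1 to 3, which overlap. All 14 genes that rose were among the 56 that rose in wild type (25.0% of those), and 4 genes that fell had risen there. Overlaps between the genotypes over all tested genes were not counted. Ndufa12 and Ndufc1 rose by 0.90 and 0.84, and Cox7a1 by 1.92. Cox4i1, the ubiquitous subunit 4 of cytochrome oxidase, fell by 0.59, from 924, 889 and 1007 CPM to 517, 643 and 712 CPM, and Ndufa6 of complex I fell by 0.76. Among mitochondrial genes 7 of 13 fell (7 also with the copies added), with a median of -0.36, and 6 of the 7 had also fallen in wild type. mt-Co2 fell by 0.84 and mt-Nd4l by 0.70. Atpif1 rose by 0.69 (edgeR adjusted p = 5.31e-05).

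**Figure D4:**
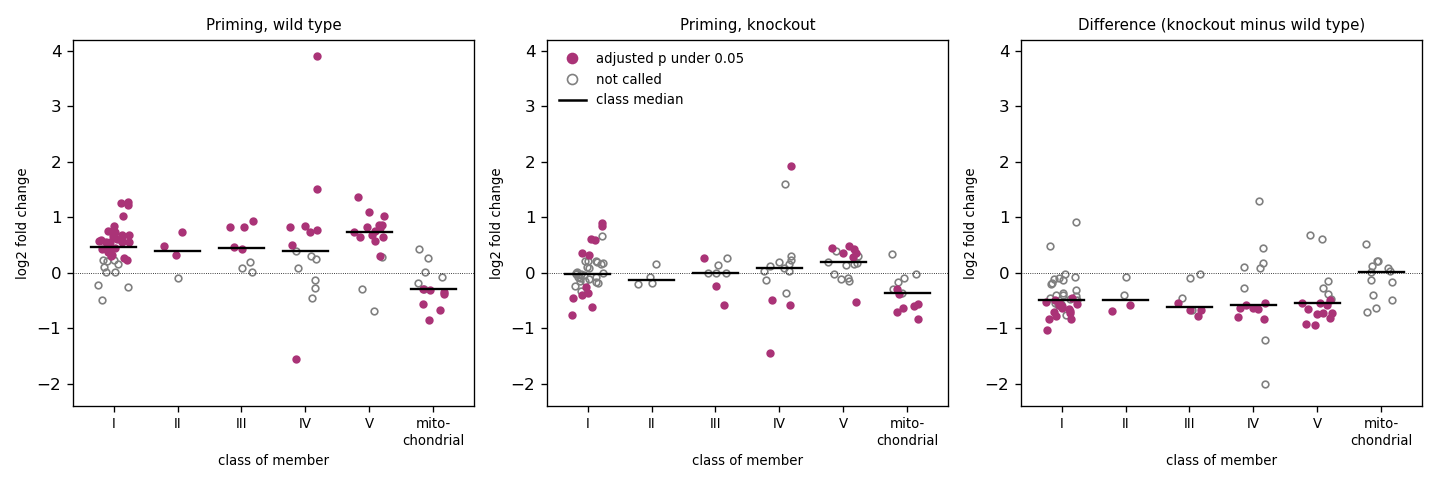
Log2 fold change of each of the 94 tested genes on priming in wild-type and knockout cells, and the difference between both, by class (nuclear genes of complexes I to V, mitochondrial genes; filled points passed edgeR at an adjusted p of 0.05, lines are class medians). Class medians of the nuclear genes are 0.39 to 0.74 in wild type and -0.13 to 0.20 in knockout, while the mitochondrial medians are -0.30 and -0.36.

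The test of the difference, the knockout response minus the wild-type response, was lower in 40 of 94 genes and higher in none by edgeR (42.6%, where 6.41% of all tested genes were lower and 4.08% higher). All 40 were nuclear: 16 of 37 in complex I, 2 of 4 in complex II, 4 of 8 in complex III, 7 of 15 in complex IV and 11 of 17 in complex V. At an unadjusted p under 0.05 there were 57 of 81 nuclear (70.4%) and 3 of 13 mitochondrial genes (23.1%, and 2 of 13 with the copies added), where 26.4% of all tested genes had one. DESeq2 gave 0 higher and 44 lower and limma voom 6 higher and 61 lower. The median was -0.55 over nuclear and 0.01 over mitochondrial genes, beside -0.01 over all tested genes. By construction, this difference is the genotype difference in primed cells minus that in fresh cells, which are given below and share all their libraries with it.

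Atp5j, subunit F6 of the peripheral stalk (chr16:84827866-84835625), showed the pattern in all replicates. It read 255, 261 and 289 CPM in fresh and 453, 547 and 431 CPM in primed wild type, and 320, 331 and 339 CPM in fresh and 286, 310 and 314 CPM in primed knockout. The groups did not overlap within either genotype, but the change in knockout was -0.12 and did not pass (edgeR adjusted p = 0.338). The difference of responses was -0.95 (SE 0.142, edgeR adjusted p = 0.000637). Cox7b of complex IV (chrX:106015700-106022450) read 152, 150 and 161 then 267, 292 and 263 CPM in wild type, and 207, 189 and 197 then 193, 202 and 212 CPM in knockout (difference -0.80, SE 0.122, edgeR adjusted p = 0.000736). Ndufv3, an accessory subunit beside the NADH-oxidising site (chr17:31520115-31531331), read 123, 121 and 137 then 182, 211 and 176 CPM in wild type, and 141, 136 and 149 then 85.9, 105 and 120 CPM in knockout, where it fell (difference -1.04, SE 0.174, edgeR adjusted p = 0.00146). Uqcrh, the hinge protein of complex III, differed by -0.78, Uqcrc2 by -0.67, Sdhc by -0.69, Sdhd by -0.58, Ndufb5 by -0.71 and Cox4i1 by -0.84. The 3 c-ring genes all differed, with a median of -0.74, and 1 of 7 core and 15 of 30 accessory genes of complex I did.

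The count in the test of the difference moved with single libraries. It was 17 without primed wild-type replicate 2, 18 without primed wild-type replicate 1, 18 without fresh knockout replicate 3, 22 without primed knockout replicate 1, 23 without fresh knockout replicate 1 and 24 without fresh wild-type replicate 2, and 54 (6 higher, 48 lower) without primed wild-type replicate 3. No gene was higher in the first 6 of these. The median difference between nuclear and mitochondrial genes was -0.56, and -0.37 without primed knockout replicate 1.

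The promoters of the nuclear genes were read for motifs. RefSeq windows (GRCm38.p6, the 250 bases before the start) matched 69 of 87 nuclear genes. The NRF1 core CGCATGCG was present on either strand in 7 of 69 (10.1%), beside 1.75% of all 27025 genes. The ETS motif CCGGAAG, which GABP binds, was present in 12 of 69 (17.4%) beside 7.83%. The 27025 were all genes with a window and were not limited to genes tested here. Shares among the tested genes alone were not counted. The E-box CACGTG was present in 6 of 69 (8.70%) beside 6.86%, and the YY1 core AAGATGGC in 1 of 69 (1.45%) beside 1.83%; none of these 4 motifs contains another. Among the 46 matched genes that rose on priming in wild type, 6 held the NRF1 core, 8 the ETS motif (17.4%), 6 the E-box and 1 the YY1 core (2.17%). In each complex, the gene with a window and the smallest p in the difference of responses was read further. Sdhd and Uqcrh held an ETS match, and Ndufv3, Cox7b and Atp5j held none of the 4 in the window read. For Atp5j this was the first of 2 windows, whereas the counts above take a match in any window of a gene. The windows with a match are shown, with the match in capitals:
Sdhd (chr9:50603850-50604099, minus strand): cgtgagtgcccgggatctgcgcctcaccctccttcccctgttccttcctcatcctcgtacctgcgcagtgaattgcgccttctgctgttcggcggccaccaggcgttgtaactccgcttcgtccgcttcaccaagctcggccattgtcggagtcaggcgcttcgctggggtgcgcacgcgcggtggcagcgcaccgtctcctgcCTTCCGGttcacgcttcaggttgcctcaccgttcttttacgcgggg
Uqcrh (chr4:116075071-116075320, minus strand): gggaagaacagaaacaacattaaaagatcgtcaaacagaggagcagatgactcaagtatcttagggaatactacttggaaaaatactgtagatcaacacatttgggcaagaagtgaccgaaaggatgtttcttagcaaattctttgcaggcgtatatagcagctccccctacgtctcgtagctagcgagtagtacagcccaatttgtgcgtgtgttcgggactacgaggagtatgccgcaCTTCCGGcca
A match describes these letters only.

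The genotypes were first compared in fresh cells. By edgeR no gene passed the test (0 of 94, where 0.0673% of all tested genes passed in either direction); 45 (47.9%) had an unadjusted p under 0.05, where 12.8% of all tested genes did. The log2 fold change was above 0 in 77 of 81 nuclear and 13 of 13 mitochondrial genes, with medians of 0.25 and 0.19 beside 0.01 over all tested genes. The nuclear sums of 16106 to 17276 CPM in knockout and 13375 to 14973 CPM in wild type did not overlap, and the ratio of mitochondrial to nuclear sums was 1.22 ± 0.0566 and 1.20 ± 0.0749 (n = 3). Atp5g2 read 123, 134 and 148 CPM in knockout and 91.4, 83.1 and 99.1 CPM in wild type (log2 fold change 0.56, SE 0.144, edgeR adjusted p = 0.206). Called counts depended on the fit: DESeq2 called 1, edgeR without the low-count filter 5 (4 higher), edgeR on the 6 fresh libraries alone 18 (17 higher) and limma voom 47 (46 higher). Erythroid markers summed to 115 to 201 CPM in fresh wild type and 16.4 to 18.1 CPM in fresh knockout, myeloid markers to at least 8.25 and at most 5.75 CPM, B-cell markers to 4.08 to 4.76 and 3.78 to 5.60 CPM and T-cell markers to 27.7 to 73.4 and 54.8 to 62.2 CPM; their part was not tested.

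After priming the knockout lay below the wild type. By edgeR 21 of 94 genes were lower (22.3%, where 8.52% of all tested genes were) and 2 higher (2.13%, where 7.00% were). The 21 were all nuclear, 11 in complex I, 2 in complex III, 4 in complex IV and 4 in complex V, and the nuclear median was -0.29. Ndufv3 was lower (log2 fold change -0.87, SE 0.124, edgeR adjusted p = 0.000165), as were Atp5j (-0.65), Uqcrh (-0.57), Cox4i1 (-0.57) and Ndufb5 (-0.50). The mitochondrial median was 0.17, and the genes higher in knockout were mt-Nd5 and mt-Nd6, with log2 fold changes of 0.37 and 0.64. mt-Nd6 read 170, 162 and 126 CPM in wild type and 329, 201 and 182 CPM in knockout, where the highest value is that of the shallowest library. The count of 23 was 9 without primed wild-type replicate 2, 14 without primed wild-type replicate 1, 15 without primed knockout replicate 1, and 11 (all lower) on the 6 primed libraries alone. Without the low-count filter 10 were higher and 14 lower, and with limma voom 11 and 47. T-cell markers summed to 30.6 to 62.0 CPM in wild type and 16.9 to 19.2 CPM in knockout; their part was not tested, and B-cell, myeloid and erythroid lists were each at or below 3.40 CPM in both.

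After NKG2D the knockout was lower in 42 of 94 genes and higher in none by edgeR (44.7%, where 9.47% of all tested genes were lower and 8.75% higher). At an unadjusted p under 0.05 there were 58 genes in either direction (61.7%, where 31.4% of all tested genes had one), DESeq2 gave 0 higher and 46 lower, and limma voom gave 5 higher and 66 lower. Of the 42, 40 were nuclear: 16 of 37 in complex I, 1 of 4 in complex II, 5 of 8 in complex III, 6 of 15 in complex IV and 12 of 17 in complex V. Nuclear genes summed to 18152, 18380 and 19087 CPM in wild type and 15952, 14460 and 13802 CPM in knockout, without overlap. The nuclear median log2 fold change was -0.33 and the mitochondrial -0.17, beside 0.03 over all tested genes. With the chromosome 1 copies added the mitochondrial median was -0.27 and the nuclear minus mitochondrial median went from -0.16 to -0.07. Per library and without the copies, the nuclear minus the mitochondrial median of log2 CPM was -2.35 to -2.13 in wild type. In knockout it was -2.75 to -2.28, which overlaps. Atp5j read 373, 417 and 455 CPM in wild type and 248, 262 and 238 CPM in knockout (log2 fold change -0.74, SE 0.100, edgeR adjusted p = 0.000104). Ndufa12 read 133, 129 and 152 CPM and 85.0, 90.0 and 86.8 CPM (-0.66, SE 0.0863, edgeR adjusted p = 6.94e-05), and Atp5g1 was at -0.76, Uqcrq at -0.66, Cox7b at -0.62, Ndufb5 at -0.64, Cox4i1 at -0.54 and Sdhb at -0.32, all past the test. Among mitochondrial genes mt-Atp6 (-0.46) and mt-Co2 (-0.42) were lower; with the chromosome 1 copies added, mt-Co3 (-0.51) and mt-Nd3 (-1.02) passed as well. Of the 21 genes lower in primed knockout cells, 18 were also lower here, 85.7% of the first list and 42.9% of the second. The same overlap over all tested genes was not counted. The 2 comparisons share no libraries, but they come from 1 joint fit with a shared estimate of the spread. The count was 24 without NKG2D wild-type replicate 3, 27 without NKG2D knockout replicate 3 and 27 on the 6 NKG2D libraries alone. T-cell markers summed to 28.3 to 49.2 CPM in wild type and 14.6 to 17.0 CPM in knockout; their part was not tested.

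**Figure D5:**
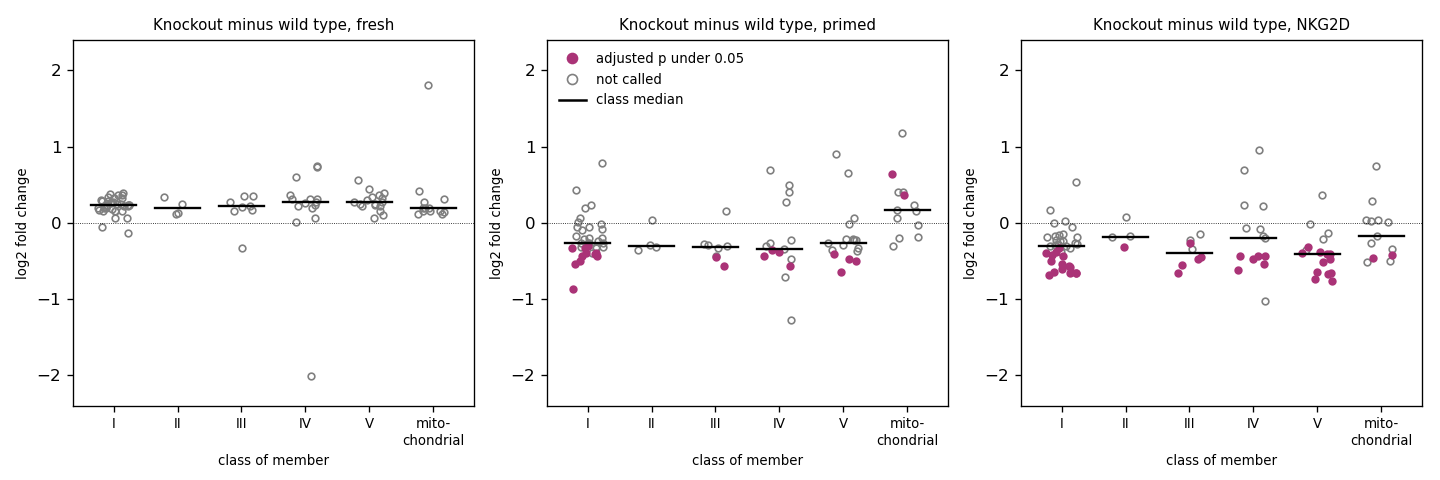
Log2 fold change, knockout minus wild type, of each of the 94 tested genes in fresh, primed and NKG2D-stimulated cells by class (filled points passed edgeR at an adjusted p of 0.05, lines are class medians). Class medians are 0.19 to 0.28 in fresh cells, where no point is filled; those of the nuclear classes are -0.34 to -0.26 in primed and -0.41 to -0.18 in NKG2D cells.

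After NKG2D stimulation, 7 of 13 mitochondrial and 1 of 81 nuclear genes were higher than in primed wild-type cells. By edgeR 8 of 94 genes rose (8.51%, where 9.20% of all tested genes did) and 4 fell (4.26%, where 10.7% did); 7 of the risen genes were mitochondrial. Stimulation and priming share the primed libraries, so the values are set side by side only. mt-Nd4 went from 666, 607 and 494 CPM to 808, 806 and 984 CPM (log2 fold change 0.56, SE 0.117, edgeR adjusted p = 0.00243). mt-Nd2 rose by 0.56, mt-Co1 by 0.55, mt-Nd5 by 0.47, mt-Co2 by 0.46, mt-Nd4l by 0.42 and mt-Cytb by 0.39, and the median over 13 was 0.46 against -0.08 over nuclear genes. The ratio of mitochondrial to nuclear sums was 1.09 ± 0.0743 (n = 3), beside 0.803 ± 0.0981 in primed cells. Of the nuclear genes Ndufv3, Ndufa12, Ndufa5 and Ndufa3, all accessory subunits, fell by 0.56, 0.28, 0.39 and 0.29. The count of 12 was 7 without NKG2D wild-type replicate 2, it was 13 with 4 risen and 9 fallen without NKG2D wild-type replicate 3, and with the copies added 6 of 13 mitochondrial genes rose, since mt-Nd4l no longer passed (0.38, edgeR adjusted p = 0.0608).

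In knockout cells 21 of 94 genes fell after stimulation (22.3%, where 16.9% of all tested genes fell) and 6 rose (6.38%, where 18.4% rose). All 21 were nuclear, 9 in complex I, 1 in complex III, 3 in complex IV and 8 in complex V, and the nuclear median was -0.19. Ndufa12 fell from 170, 145 and 161 CPM to 85.0, 90.0 and 86.8 CPM, by 0.86 on the log2 scale (SE 0.0866, edgeR adjusted p = 7.39e-07), and Atp5mpl and Atp5e of the synthase fell by 0.69 and 0.39. mt-Co1, mt-Nd4l and mt-Nd4 rose by 0.44, 0.39 and 0.32, as did Cox7a2l, a factor that joins complexes III and IV, by 0.48, and Sdhc by 0.39. With the copies added mt-Nd4l read 0.15 (edgeR adjusted p = 0.438) and did not pass. The median over mitochondrial genes was 0.08. Without NKG2D knockout replicate 1 or without primed knockout replicate 1, 2 genes rose.

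The response to NKG2D differed between genotypes in 2 of 94 genes by edgeR (2.13%, where 3.55% of all tested genes differed in either direction). Ndufa12 differed by -0.58 (SE 0.121, edgeR adjusted p = 0.014) and Ndufv3 by 0.68 (SE 0.174, edgeR adjusted p = 0.038). At an unadjusted p under 0.05 there were 15 genes (16.0%, where 18.2% of all tested genes had one), 5 of them mitochondrial, and none of the 13 mitochondrial genes passed, with log2 differences of -0.65 to -0.03, all below 0. The count was 0 on the libraries of the comparison alone, 0 without primed wild-type replicate 1 and 1 without NKG2D wild-type replicate 1 or 2, NKG2D knockout replicate 1 or primed knockout replicate 1 or 2.

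Genes that build or feed the chain were read from lists chosen by function. Among 14 carriers and partners of the chain, 10 rose on priming in wild type (26.5% of all tested genes rose) and 7 in knockout (23.0%). Slc25a4 and Slc25a5, the ADP/ATP carriers of the inner membrane, rose by 1.75 and 1.23 in wild type and by 1.21 and 1.20 in knockout. The difference of responses passed in 3 of 14, all lower in knockout, where 6.41% of all tested genes were lower. Among the 3 were Etfb, which passes electrons from fatty acid oxidation, at -1.40 and the outer membrane channel Vdac2 at -0.63. After NKG2D, Cycs, the electron carrier between complexes III and IV, was 167 ± 10.5 CPM in wild type and 85.9 ± 15.3 CPM in knockout (n = 3; log2 fold change -0.96, SE 0.130, edgeR adjusted p = 9.54e-05).

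Assembly factors, which build the complexes but do not stay in them, were read next. On priming in wild type, 8 of 17 factors of complex I, 3 of 10 of complexes II and III, 9 of 22 of complex IV and 1 of 4 of complex V rose, and 2 of complex IV fell. Of all tested genes 26.5% rose, so the counts for complexes II and III and complex V are near that share. The difference of responses was lower in 3, 2, 6 and 0 of them and higher in 1, Cox11 of complex IV (1.33). Of all tested genes 6.41% were lower and 4.08% higher, so the 1 higher of 22 is near that share. Tmem126b, a complex I factor, rose by 1.29 in wild type and 0.69 in knockout, and Higd1a, known to act on complex IV, rose by 1.10 in wild type and differed by -0.75. After NKG2D the knockout was lower in Uqcc2, a complex III factor (-1.35), Ndufaf4 of complex I (-1.58), and Coa7 and Cox16 of complex IV (-1.09 and -0.81).

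Of 22 genes that copy, read and process mitochondrial DNA, 11 rose and 3 fell on priming in wild type (26.5% and 27.2% of all tested genes), and 12 rose and 2 fell in knockout (23.0% and 25.7%). Slirp, which stabilises mitochondrial mRNAs, rose by 1.21 and Ssbp1, the single-strand binding protein, by 0.93 in wild type, while Polg, the DNA polymerase, and Polrmt, the RNA polymerase, fell by 1.45 and 1.31. Hsd17b10 and Prorp, subunits of mitochondrial RNase P, differed in response by -0.96 and -1.26, and their partner Trmt10c was higher in primed knockout cells by 0.53 (edgeR adjusted p = 0.0244). Of 12 nuclear regulators tested, 3 rose and 5 fell on priming in wild type and 5 rose and 3 fell in knockout; against the same shares of all tested genes, the 3 risen in wild type and the 3 fallen in knockout are near background. Myc rose by 1.43 and 1.31, and was at 194 ± 25.0 and 245 ± 21.0 CPM (n = 3) in primed wild-type and knockout cells. Gabpb2, a partner of the ETS factor GABP, and Epas1, a hypoxia-inducible factor, fell in wild type by 0.53 and 1.37, and their responses differed by 1.12 and 2.61.

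In the authors' deposited table for fresh cells, 43 of 94 members were higher and 1 lower at an adjusted p under 0.05, with a median log2 fold change of 0.24. In the authors' deposited table for primed cells 14 were higher and 32 lower, with a median of -0.20, and in the authors' deposited table for NKG2D cells 4 were higher and 68 lower, with a median of -0.40. The 1 lower in fresh cells was Cox5a (-1.89). The 14 higher in primed cells included Atp5d (1.74), Atp5b (1.48), Ndufa10 (1.33), Ndufb2 (1.17), Cox5b (1.16) and Cox8a (0.72). These genes and Cox5a are among the genes with widely spread replicates named above. The others of the 14 were not named there: Cox6a2 (1.31), Cox6a1 (0.62), mt-Co1 (0.41), mt-Nd5 (0.3), Ndufa4 (0.28), Ndufv1 (0.27), Uqcrc1 (0.27) and Atp5a1 (0.18). The 4 higher in NKG2D cells were mt-Nd3 (2.2), Cox5a (1.33), Ndufa10 (0.74) and mt-Co1 (0.22). These tables called 1940, 4238 and 6177 of 13578 genes.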

How the data were processed

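RNA of sorted mouse NK cells was measured by RNA-seq (SMARTer libraries, per the labels' protocols) in 18 libraries. The submitters' processing notes name mm10, bcl2fastq, DRAGEN and edgeR; no label or header states tool versions, annotation, alignment settings or strand use. The authors deposited a table of estimated counts per gene, not normalized, as the values show. Of values above 0, 30.0% are not whole, and all were rounded to whole numbers here. The design had assumed counts, and the same count test was used. Of 55774 rows, 55487 identifiers remained after repeated ones were dropped. The authors also deposited log2 fold changes and p-values for 3 genotype comparisons, which are quoted only where named. Libraries hold 14772350 to 34367582 counts; without molecular identifiers, counts are not independent molecules.

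All 18 libraries were fitted together with edgeR 4.0.16 (R 4.3.3): TMM scaling, filterByExpr (14864 genes tested), quasi-likelihood F-test over 6 groups, 12 residual degrees of freedom, Benjamini-Hochberg adjusted p of 0.05 over all tested genes. The common biological coefficient of variation was 0.234. CPM values use TMM-scaled library sizes. Alternatives were DESeq2 1.42.0 (and its size factors), limma 3.58.1 voom, no low-count filter, the libraries of a comparison alone, a replicate block, mitochondrial genes left out, and each library left out. The scripts were checked on simulated data. The members and lists were chosen with earlier results of these data known. Genes named were, per comparison, the 2 risen and 2 fallen of smallest p in each class and list, the members with the extreme fold changes, and a set of subunits and isoforms held constant over comparisons; the widely spread members, and Ndufa3 and Ndufa5, were named after their values were seen. Sequences came from GENCODE vM21 transcripts and RefSeq GRCm38.p6 promoter windows. Results for 1 member are not reported here by name.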

Additional observations from a re-analysis of the deposited data

Results flagged for a closer look

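The response to priming differed between the genotypes, by edgeR's test of the difference between responses, in 40 of 94 members. All 40 were lower (42.6%), where 6.41% of all tested genes were lower and 4.08% higher. The 2 members of smallest p in each complex were Ndufv3 (-1.04) and Ndufb5 (-0.71) of complex I, Sdhc (-0.69) and Sdhd (-0.58) of complex II, Uqcrh (-0.78) and Uqcrc2 (-0.67) of complex III, Cox7b (-0.80) and Cox7a2 (-0.64) of complex IV, and Atp5j (-0.95) and Atp5c1 (-0.66) of complex V, each as the knockout minus the wild-type log2 fold change. The response to NKG2D differed by the same test in 2 of 94 members, Ndufa12 (-0.58) and Ndufv3 (0.68). That share is below the 3.55% of all tested genes that differed. The count was 0 on the libraries of the comparison alone or with a replicate block.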

How the results depend on the processing

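Counts of members past the test moved over 1.5 times under these alternatives, and the cause was not tested. With limma voom they were 47 (fresh genotype comparison), 58 (primed), 71 (NKG2D), 51 (priming in knockout), 41 and 53 (NKG2D stimulation in wild type and knockout), 67 (difference in priming) and 14 (difference in stimulation). On the libraries of a comparison alone they were 18 (fresh), 11 (primed), 27 (NKG2D) and 0 (difference in stimulation, by edgeR). Without the low-count filter they were 5 (fresh) and 7 (difference in stimulation), and with DESeq2 1 (fresh). With each library left out in turn, the counts were 9 to 31 (primed), 24 to 52 (NKG2D), 7 to 13 (stimulation in wild type), 17 to 54 (difference in priming) and 0 to 3 (difference in stimulation), and the nuclear minus mitochondrial median was -0.45 to -0.13 (stimulation in knockout) and -0.66 to -0.37 (difference in priming). The count for priming in wild type stayed within 1.5 times of 64 under all alternatives run. mt-Nd3 after NKG2D went from 0.75 to -1.02 with the chromosome 1 copies added, an alternative chosen after seeing the data. Same-numbered libraries deviated from their group means with correlations of -0.15 to 0.13, so the numbers were not taken as pairs. The mt-Nd3 pattern recurs in wild-type replicates 2 and 3 of every condition, and whether same-numbered libraries share a source was not tested. With a replicate block the counts were 5 (stimulation in wild type), 19 (difference in priming) and 0 (difference in stimulation). Depth of 14772350 counts or more left 6 members below the filter, and each group held 3 libraries.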
